A study of Rattus norvegicus with 30 samples.

Results

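The genes described are 39 rat genes that encode enzymes of amino acid breakdown and of the urea cycle, followed in cultured hepatocytes exposed to diisononyl phthalate (DINP), a plasticiser. Every probe set that the array annotation assigns to 1 of these genes alone was taken, which gave 47 probe sets for 38 of the 39 genes out of 31042 probe sets in all. Amdhd1 was not analysed here. Of the 47 probe sets, 45 passed the filter on dim probe sets, among 18625 that did, and they covered all 38 genes among 10602 named genes. The other two were second probe sets of Prodh and Bckdha. Where a gene had several, the brightest stands for it.

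The cells were frozen primary hepatocytes of male Sprague Dawley rats, kept between collagen and Matrigel and exposed some days after plating. There were 6 groups of 5 arrays, which were vehicle (DMSO), DINP at 25 mM and DINP at 100 mM, each harvested at 48 h or at 24 h, and DMSO was the solvent in all of them. The dose unit is given as labelled. Arrays of a group came from separate wells, and the donor animals are not given, so p-values measure the spread between wells. Cells in such a culture are cut off from the blood supply and the neighbouring cells of the liver.

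Surplus amino acids are taken apart mainly in the liver: a transaminase or dehydratase removes the nitrogen, the carbon skeleton enters the citric acid cycle or glucose synthesis, and the nitrogen leaves as urea. Each amino acid has its own chain of enzymes, so that tyrosine passes from tyrosine aminotransferase (Tat) to fumarylacetoacetase (Fah), and histidine from histidase (Hal) to formimidoyltransferase cyclodeaminase (Ftcd). Glucocorticoids and glucagon are known to induce several of these enzymes in liver, Tat being the classic example.

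In the urea cycle and in methionine, histidine and tyrosine breakdown, genes were called in both directions under DINP in all 4 comparisons of a dose with vehicle. Uroc1 (urocanase), Hgd (homogentisate dioxygenase) and Aass (the first enzymes of lysine breakdown, in 1 protein) rose most, with signals up to 2.16-fold, 1.88-fold and 1.8-fold of vehicle at 25 mM and 48 h. Tat fell most, to a signal 1.89-fold lower than vehicle at 25 mM and 24 h, and Cth (cystathionine gamma-lyase), Prodh (proline dehydrogenase), Hal and Ass1 (argininosuccinate synthetase) fell with it. Folds are on the scale of log2(signal + 16), on which all differences are given with their standard errors, and this scale understates the change of dim probe sets. Fewer cells of a type and less RNA per cell cannot be told apart in these arrays.

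At 25 mM and 48 h, 17 of the 38 genes were higher and 5 lower than in vehicle wells at an adjusted p under 0.05 in limma, against 9.78% higher and 12.1% lower of all 10602 genes. For 100 mM at 48 h the counts were 15 higher and 6 lower, against 8.69% and 9.21% of all genes. The counts at 24 h were 11 higher and 7 lower at 25 mM, against 7.88% and 7.84% of all genes, and 8 higher and 6 lower at 100 mM, against 7.55% and 7.02%. As shares of the 38 genes, the higher calls were 44.7% at 25 mM and 39.5% at 100 mM at 48 h, and 28.9% and 21.1% at 24 h. The lower calls were 13.2%, 15.8%, 18.4% and 15.8% in that order. These shares compare genes of unlike brightness, as the median of the mean log2 signals was 13.5 for the 38 genes and 10.6 for all 10602 genes. The part of brightness in the shares was not tested. The 5 DINP arrays lay wholly above the 5 vehicle arrays for 11 of the higher genes at 25 mM and 9 at 100 mM at 48 h, where 5.87% and 6.09% of all genes did so. At 24 h these numbers were 7 and 5, against 5.59% and 5.67%. The arrays lay wholly below vehicle for 4 and 6 of the lower genes at 48 h (6.74% and 5.58% of all genes), and for 7 and 6 at 24 h (5.63% and 5.32%). The median difference over the 38 genes was 0.17 at 25 mM and 0.12 at 100 mM at 48 h and 0.02 and 0.03 at 24 h, beside -0.03, -0.06, -0.02 and -0.03 over all genes.

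Across the 4 dose comparisons, which share their vehicle arrays within a time, 7 genes were higher in all 4 (Oat, Uroc1, Ftcd, Gstz1, Agxt, Aass and Bckdhb). The 5 genes lower in all 4 were Ass1, Cth, Hal, Tat and Prodh. A further 13 were called in 1 to 3 of them and 13 in none, Cps1 among these on its brighter probe set, and 0 were called higher in one and lower in another. The plot of differences by pathway shows both directions within the urea cycle and methionine, histidine and tyrosine breakdown.

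**Figure D1:**
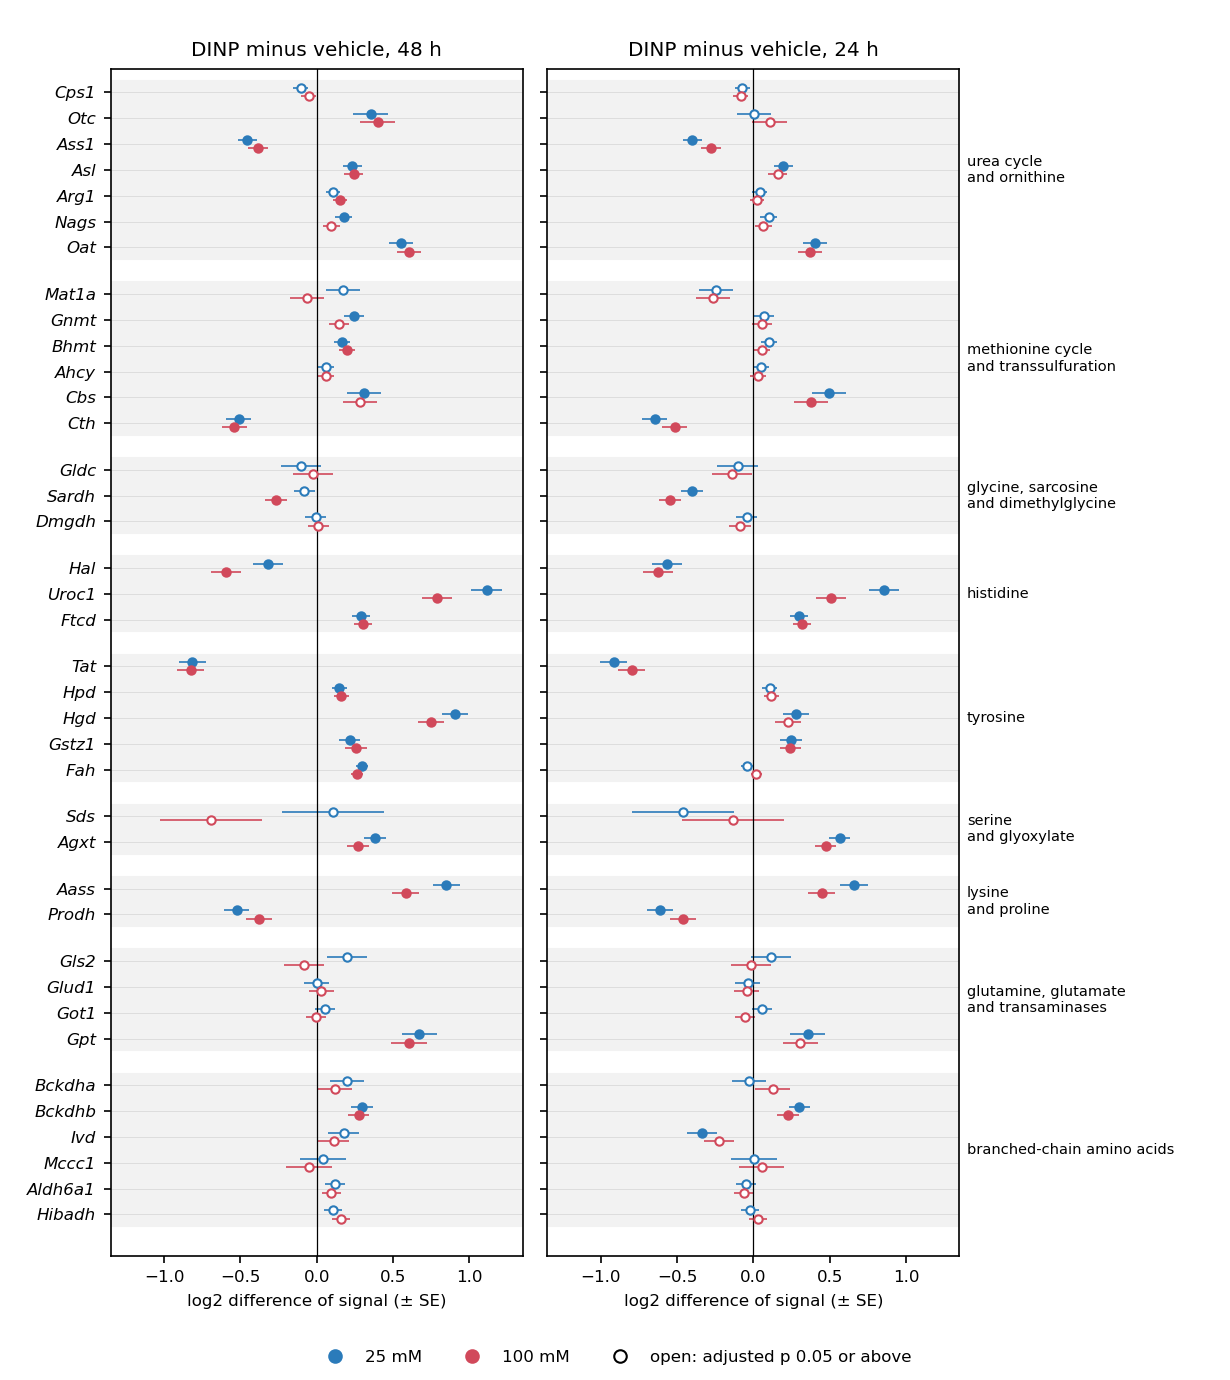
Log2 difference from vehicle (horizontal axis) of each of the 38 genes, grouped by pathway, at 48 h (left panel) and 24 h (right panel), for 25 mM and 100 mM DINP. Bars are standard errors and open symbols have an adjusted p of 0.05 or more; Uroc1 lies farthest to the right at 1.11 (25 mM, 48 h) and Tat farthest to the left among called genes at -0.92 (25 mM, 24 h).

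Some facts of the whole experiment bear on these counts. The arrays as deposited share a 2% trimmed mean, which lay between 1500.65 and 1500.76. When arrays were centred on their median instead, the median of all genes at 100 mM and 48 h was 0.04 in place of -0.06, and 78% in place of 48.6% of calls over all genes were higher. In the same setting 71.3% in place of 50.1% of calls were higher at 25 mM and 24 h and 76.3% in place of 51.8% at 100 mM and 24 h. The array that stood farthest from its group was vehicle 48 h replicate 1, with a median absolute deviation of 0.196, the other 29 lying between 0.132 and 0.186. The scaling also moved the counts of the 38 genes: at 25 mM and 48 h, 10 in place of 17 were higher with median centring, and at 100 mM and 48 h, 9 in place of 15 with quantile normalisation. Without vehicle 48 h replicate 1, Mat1a was called higher at 25 mM and 48 h and Bhmt was not, so that the counts there were 17 higher and 5 lower, and at 100 mM and 48 h they were 15 and 6. Without vehicle 24 h replicate 2, 5 genes in place of 8 were higher at 100 mM and 24 h.

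Hepatocyte markers were measured by 7 of 8 listed genes, all of them above the dimmest tested level, and their summed signal overlapped between groups. Apob (0.30, adjusted p = 0.0403) and Hnf4a (0.25, adjusted p = 0.00387) were called higher at 25 mM and 48 h and Fgb lower at 100 mM and 48 h (-0.16, adjusted p = 0.0366), each with overlapping arrays. The medians of the sum were 563070 in vehicle wells, 577880 at 25 mM and 572966 at 100 mM at 48 h, and 590862, 603024 and 601704 in the same order at 24 h. Of 8 stellate cell and fibroblast markers, 5 were above that level, and their summed signal was lower under DINP. The sum ranged from 13266 to 21575 in vehicle wells, from 9255 to 10700 at 25 mM and from 9634 to 11996 at 100 mM at 48 h. Its medians at 24 h were 14712, 9036 and 9450 in the same order. Most of that sum was Vim (vimentin, an intermediate filament of mesenchymal and cultured cells), which fell by 1.09 at 25 mM (adjusted p = 1.8e-09) and by 0.81 at 100 mM (adjusted p = 8.64e-07) at 48 h, and by 1.01 and 0.79 at 24 h. Of the other tested markers of that list, Acta2 was lower at 100 mM and 48 h (-0.52, adjusted p = 0.00881), while Col1a1, Col3a1 and Des had differences of -0.18 to 0.10 and no call. Kupffer cell markers were above the dimmest level for 4 of 7 listed genes and endothelial markers for 3 of 6, with no call. Lymphocyte markers were above it for 0 of 3 listed genes. A probe set was assigned to 6, 5 and 2 of the listed genes, in the same order. The summed Kupffer cell signal at 24 h was 2663 to 3348 at 100 mM, below the 3480 to 4223 of vehicle wells. At 25 mM and 24 h (3089 to 3737) and at both doses at 48 h that sum overlapped vehicle. Of 5 listed cholangiocyte markers 4 had a probe set and 2 were above the dimmest level. Epcam was lower at 48 h (-0.35, adjusted p = 0.000796 at 25 mM and -0.22, adjusted p = 0.0422 at 100 mM). Krt19, the other, averaged 8.31 in vehicle wells, 8.07 at 25 mM and 8.63 at 100 mM at 48 h on the log2 scale. At 24 h the Krt19 means were 8.25, 7.77 and 7.73 in the same order. Of 3 listed erythroid markers 2 had a probe set and 2 were above the dimmest level. Hbb was higher at 100 mM and 24 h by 1.73 ± 0.52 (adjusted p = 0.0228), with every DINP array above vehicle. Alas2, the other, did not rise there, with a mean of 8.07 at 100 mM and 8.10 in vehicle wells at 24 h on the log2 scale. The Hbb mean in those vehicle wells, 7.02 on the log2 scale, lay under the dimmest tested mean of 7.955. The array's 5S rRNA control also differed, at 847 ± 99 in vehicle wells, 1845 ± 215 at 25 mM and 1613 ± 335 at 100 mM at 48 h. At 24 h it was at 1037 ± 180, 2160 ± 574 and 2143 ± 461 in the same order (SD, n = 5 each). The part of these shifts in the results on the 38 genes was not tested.

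The promoters of the 3 genes that rose most and of Tat, which fell most, are shown so that the letters before their starts can be set side by side. The windows are 300 bases, 250 before and 50 after the annotated start, from RefSeq on build GRCr8, printed on the gene's strand from 5′ to 3′. Capitals mark TGACCT or AGGTCA, the half-site read by many nuclear receptors, searched on both strands. Uroc1 lies at chr4:124401869-124402168 on the plus strand, Hgd at chr11:76643718-76644017 on the minus strand, Aass at chr4:52628762-52629061 on the minus strand and Tat at chr19:54856354-54856653 on the plus strand.
Uroc1: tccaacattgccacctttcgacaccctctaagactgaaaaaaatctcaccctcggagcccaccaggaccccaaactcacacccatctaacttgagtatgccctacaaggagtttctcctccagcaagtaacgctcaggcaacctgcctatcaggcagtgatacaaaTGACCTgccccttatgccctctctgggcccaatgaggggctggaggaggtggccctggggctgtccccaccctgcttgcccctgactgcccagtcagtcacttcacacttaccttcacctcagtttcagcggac
Hgd: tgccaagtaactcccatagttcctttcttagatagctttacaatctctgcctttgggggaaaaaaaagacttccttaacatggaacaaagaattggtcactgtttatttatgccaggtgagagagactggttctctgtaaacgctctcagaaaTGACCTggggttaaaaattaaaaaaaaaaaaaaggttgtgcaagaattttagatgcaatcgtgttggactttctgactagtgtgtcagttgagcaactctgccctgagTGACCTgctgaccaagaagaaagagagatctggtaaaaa
Aass: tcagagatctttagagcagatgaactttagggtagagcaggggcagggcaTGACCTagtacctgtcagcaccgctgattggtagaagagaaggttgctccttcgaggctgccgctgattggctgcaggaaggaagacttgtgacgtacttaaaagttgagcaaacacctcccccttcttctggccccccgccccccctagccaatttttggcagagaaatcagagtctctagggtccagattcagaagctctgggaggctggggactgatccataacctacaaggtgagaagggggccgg
Tat: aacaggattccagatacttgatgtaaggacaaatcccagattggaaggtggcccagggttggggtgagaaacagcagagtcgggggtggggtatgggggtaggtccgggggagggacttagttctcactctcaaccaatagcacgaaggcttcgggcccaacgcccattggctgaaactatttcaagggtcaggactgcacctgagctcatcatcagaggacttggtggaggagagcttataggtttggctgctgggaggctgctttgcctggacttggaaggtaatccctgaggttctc
The window of Uroc1 held the motif once, its first base 84 bases before the start. That of Hgd held it at 2 places, 97 bases before the start and 11 bases after it, and that of Aass once, 200 bases before it. The Tat window held 0 matches, which says only that these letters are not in it. A promoter was found for 31 of the 39 genes, and 10 of them (32.3%) held the motif on either strand, against 16.2% of 33469 rat promoters of the same length. The units differ: the 31 genes had 34 promoters and a gene counted if any of its own held the motif, while the 16.2% is of single promoters. The 10 were Nags, Gnmt, Bhmt, Ahcy, Sardh, Uroc1, Hpd, Hgd, Aass and Hibadh, which include genes that rose, Sardh, which fell, and genes with no call. A match is a description of the letters and no site of binding.

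The urea cycle genes did not move as 1 block. Of 7 genes, each dose had 4 higher and 1 lower at 48 h, 25 mM had 2 higher and 1 lower at 24 h, and at 100 mM and 24 h there was 1 in each direction. Oat (ornithine aminotransferase, which links ornithine to glutamate and proline) rose and Ass1, which joins citrulline to aspartate, fell at every dose and time tested.
At 48 h, Oat signals were 6257, 7971, 6929, 8828 and 8532 in vehicle wells, 11125, 10940, 11073, 12292 and 10615 at 25 mM, and 10591, 11791, 11357, 12220 and 12305 at 100 mM, in replicate order. At 24 h, Oat signals were 8552, 8776, 10535, 10688 and 10649 in vehicle wells, 13212, 12860, 12908, 12296 and 13654 at 25 mM, and 11720, 13922, 12539, 11799 and 13525 at 100 mM. Every DINP array exceeded every vehicle array of its time. The differences were 0.55 ± 0.08 (adjusted p = 2.49e-06) at 25 mM and 0.61 ± 0.08 (adjusted p = 5.84e-07) at 100 mM at 48 h, and 0.41 ± 0.08 (adjusted p = 0.000309) and 0.37 ± 0.08 (adjusted p = 0.00103) at 24 h.
At 48 h, Ass1 signals were 90128, 81696, 72749, 93061 and 95652 in vehicle wells, 64673, 64947, 65049, 63682 and 56880 at 25 mM, and 63457, 70039, 62458, 69068 and 65672 at 100 mM. At 24 h, Ass1 signals were 76860, 74500, 75458, 75416 and 87796 in vehicle wells, 59507, 58753, 56118, 66837 and 54560 at 25 mM, and 64668, 58898, 65620, 64422 and 67900 at 100 mM. All DINP arrays lay below all vehicle arrays of the same time. Ass1 fell by 0.45 at 25 mM and 0.38 at 100 mM at 48 h (SE 0.06, adjusted p = 1.94e-06 and 3.6e-05), and by 0.40 and 0.28 at 24 h (adjusted p = 2.1e-05 and 0.00254). With median centring the call at 100 mM and 24 h ended (-0.19, adjusted p = 0.17).

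The remaining genes of the cycle differed by less. Otc (ornithine transcarbamylase, which makes citrulline in mitochondria) was higher at 48 h, by 0.35 ± 0.11 (adjusted p = 0.0257) at 25 mM and 0.40 ± 0.11 (adjusted p = 0.0134) at 100 mM, with overlapping arrays. Its differences at 24 h were 0.00 and 0.11 with no call. Arg1 (arginase, which releases urea) had at 48 h signals of 104305, 105477, 98154, 110440 and 110077 in vehicle wells, 120752, 113592, 110613, 118273 and 105926 at 25 mM, and 111479, 125869, 114484, 120759 and 115782 at 100 mM. Its signals at 24 h were 103378, 106200, 111800, 107960 and 116121 in vehicle wells, 115681, 111104, 102104, 122177 and 110348 at 25 mM, and 113258, 106178, 115034, 110187 and 109901 at 100 mM. At 48 h all 100 mM arrays of Arg1 lay above all vehicle arrays, while the 25 mM arrays overlapped them. The only Arg1 call was 0.15 ± 0.05 (adjusted p = 0.0205) at 100 mM and 48 h. At 24 h the sign of its differences (0.04 and 0.02) turned with quantile normalisation, to -0.01 and -0.03. Nags, which makes the activator of carbamoyl phosphate synthetase, was higher at 25 mM and 48 h, by 0.18 ± 0.06 (adjusted p = 0.0275), with every DINP array above vehicle. Asl (argininosuccinate lyase) had 2 probe sets. The brighter, 1367754_s_at, was 0.23 ± 0.06 (adjusted p = 0.00712) at 25 mM and 0.24 ± 0.06 (adjusted p = 0.00582) at 100 mM at 48 h, and 0.19 ± 0.06 (adjusted p = 0.0321) at 25 mM and 24 h. Its listed accession, NM_031330, belongs to Hnrnpab, an RNA-binding protein, in the reference table, against the annotation. The other, 1368916_at, carries an Asl accession and gave 0.22 ± 0.06 (adjusted p = 0.0063) and 0.14 ± 0.06 (adjusted p = 0.0877) at 48 h and 0.18 ± 0.06 (adjusted p = 0.0316) at 25 mM and 24 h. The Asl call at 100 mM and 48 h rests on the first.
Several of these calls ended when 1 array was left out. This held for Otc at 48 h without any 1 of DINP 25 mM 48 h replicates 4 and 5 and vehicle 48 h replicates 2, 3, 4 and 5 (0.32 to 0.34 at 25 mM) or DINP 100 mM 48 h replicate 5 (0.32 at 100 mM). It held for Arg1 without any 1 of DINP 100 mM 48 h replicates 2 and 4 and vehicle 48 h replicate 3 (0.13 to 0.15) and for Nags without any 1 of DINP 25 mM 48 h replicates 3 and 4 and vehicle 48 h replicates 3 and 4 (0.16 to 0.17). Asl at 25 mM and 24 h lost its call without any 1 of DINP 25 mM 24 h replicates 3, 4 and 5 and vehicle 24 h replicates 1 and 2 (0.16 to 0.20). Otc, Asl and Nags at 25 mM and 48 h also lost theirs with median centring (adjusted p = 0.0596, 0.0912 and 0.105), Asl at 100 mM and Arg1 with quantile normalisation (0.0919 and 0.694), and Asl at 25 mM and 24 h with both (0.0572 and 0.11). With no filter and with no variance trend the calls of Asl at 25 mM and 24 h (0.0563 and 0.0666) and Arg1 (0.0563 and 0.0605) ended, and with the compared groups alone those of Arg1 (0.0528) and Nags (0.0813).

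Cps1 (carbamoyl phosphate synthetase, which starts the cycle in mitochondria) had 2 probe sets that disagreed. The brighter, 1384334_at, had signals at 48 h of 97171, 95986, 94350, 99473 and 104293 in vehicle wells, 97975, 94291, 85442, 94482 and 84828 at 25 mM, and 88894, 96449, 94496, 96147 and 98020 at 100 mM. At 24 h, Cps1 signals on it were 100104, 96298, 95994, 92376 and 103717 in vehicle wells, 99161, 91996, 82318, 100693 and 90754 at 25 mM, and 95572, 89319, 95967, 91285 and 89153 at 100 mM. The groups overlapped, and the differences were between -0.11 and -0.05 with no call (adjusted p = 0.148 to 0.546).
The other, 1370151_at, whose accession is the Cps1 reference transcript NM_017072, had signals at 48 h of 48077, 55725, 57290, 69445 and 66287 in vehicle wells, 39299, 42307, 38596, 41178 and 38440 at 25 mM, and 35370, 39479, 41592, 40432 and 44118 at 100 mM. At 24 h this Cps1 probe set had 65461, 60943, 70873, 68138 and 80954 in vehicle wells, 52396, 44235, 41468, 48285 and 53581 at 25 mM, and 42305, 42621, 45205, 48184 and 48680 at 100 mM. Here every DINP array was below every vehicle array of its time. The Cps1 differences on it were -0.56 ± 0.08 (adjusted p = 4.46e-06) at 25 mM and -0.55 ± 0.08 (adjusted p = 6.85e-06) at 100 mM at 48 h, and -0.53 ± 0.08 (adjusted p = 1.46e-05) and -0.61 ± 0.08 (adjusted p = 1.71e-06) at 24 h. Taking the median over both probe sets, Cps1 was lower in all 4 comparisons, by 0.30 to 0.34. With quantile normalisation the brighter probe set also passed as lower in all 4 (-0.17 to -0.14), and with median centring its differences were 0.00 at both doses at 24 h and 0.05 at 100 mM and 48 h. Over the 6 genes with more than 1 tested probe set, 6 of 24 gene and comparison pairs differed in call, 4 of them Cps1, and 0 were called in opposite directions.

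**Figure D2:**
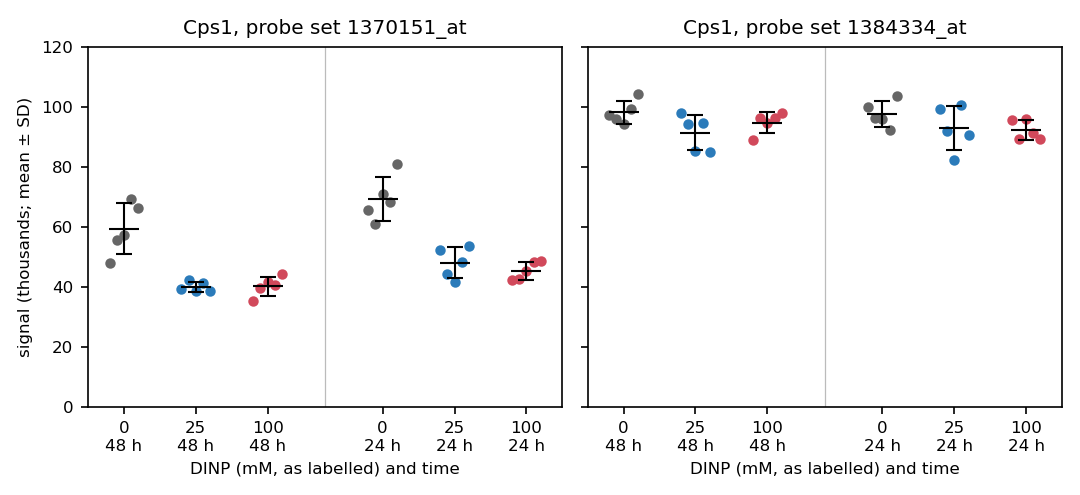
Signal divided by 1000 (vertical axis) of the 2 Cps1 probe sets on each array, by time, 48 h left of 24 h, and dose from vehicle to 100 mM. Points are arrays and black marks give mean ± SD (n = 5); 1370151_at averages 59365 in vehicle wells, 39964 at 25 mM and 40198 at 100 mM at 48 h, while the groups of 1384334_at overlap.

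In methionine metabolism the clearest change was Cth, which makes cysteine from cystathionine and was lower in all 4 comparisons, while Cbs, the enzyme before it, was higher at both doses at 24 h and only just passed at 25 mM and 48 h. Of its 6 genes, 25 mM at 48 h had 3 higher and 1 lower, and each of the other 3 comparisons had 1 in each direction. At 48 h, Cth signals were 22452, 17147, 19046, 18263 and 16185 in vehicle wells, 12667, 11390, 13276, 13570 and 14208 at 25 mM, and 11173, 11531, 12786, 13604 and 14862 at 100 mM. At 24 h, Cth signals were 24959, 24802, 26368, 26295 and 29437 in vehicle wells, 16838, 15391, 15023, 17955 and 19135 at 25 mM, and 18649, 19422, 17221, 17347 and 19608 at 100 mM. No DINP array reached the lowest vehicle array of its time. Cth fell by 0.51 at 25 mM and 0.54 at 100 mM at 48 h (SE 0.08, adjusted p = 1.89e-05 and 9.84e-06) and by 0.65 and 0.51 at 24 h (adjusted p = 4.03e-07 and 2.62e-05).
Cbs (cystathionine beta-synthase) was higher at 48 h by 0.31 ± 0.11 (adjusted p = 0.05) at 25 mM, just under the threshold, and differed by 0.28 ± 0.11 (adjusted p = 0.086) at 100 mM. At 24 h Cbs was higher by 0.49 ± 0.11 (adjusted p = 0.00197) at 25 mM and 0.38 ± 0.11 (adjusted p = 0.0215) at 100 mM, and the arrays overlapped throughout. Bhmt, which remethylates homocysteine with betaine, was higher at 48 h, by 0.17 ± 0.05 (adjusted p = 0.0242) at 25 mM and 0.20 ± 0.05 (adjusted p = 0.00849) at 100 mM. Gnmt, which uses up methyl groups on glycine, was higher by 0.25 ± 0.07 (adjusted p = 0.00708) at 25 mM and 48 h. Ahcy, which splits adenosylhomocysteine, had differences of 0.03 to 0.06 and no call.
Cbs lost its call at 25 mM and 48 h without any 1 of DINP 25 mM 48 h replicates 2, 3, 4 and 5 and vehicle 48 h replicates 2, 4 and 5 (0.22 to 0.33) and at 100 mM and 24 h without any 1 of DINP 100 mM 24 h replicates 1 and 3 and vehicle 24 h replicates 2 and 4 (0.32 to 0.37). At 25 mM and 48 h the Cbs call also ended with an added constant of 1, no filter, median centring, no variance trend, the compared groups alone and array weights (adjusted p = 0.0505 to 0.0773). Bhmt at 25 mM lost it without any 1 of DINP 25 mM 48 h replicates 1 and 3 and vehicle 48 h replicates 1 and 3 (0.14 to 0.16). With quantile normalisation the Bhmt calls (adjusted p = 0.0609 and 0.123) and the Gnmt call (0.0526) ended. The Bhmt call at 25 mM also ended with no filter, median centring, no variance trend and the compared groups alone (adjusted p = 0.052 to 0.132).

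Mat1a, the liver form of the enzyme that makes S-adenosylmethionine, was called in none of the 4 comparisons. Its signals at 48 h were 20770, 11804, 13048, 14780 and 12652 in vehicle wells, 16768, 14077, 15953, 16581 and 17317 at 25 mM, and 11799, 12726, 13835, 14888 and 15602 at 100 mM. At 24 h, Mat1a signals were 12885, 12751, 12375, 11380 and 16236 in vehicle wells, 10270, 9731, 10661, 11325 and 13307 at 25 mM, and 11745, 10514, 9665, 10557 and 11912 at 100 mM. Vehicle 48 h replicate 1 was above every other Mat1a array, and the groups overlapped. The differences were 0.17 ± 0.11 (adjusted p = 0.339) and -0.06 ± 0.11 (adjusted p = 0.778) at 48 h, and -0.24 ± 0.11 (adjusted p = 0.16) and -0.26 ± 0.11 (adjusted p = 0.128) at 24 h. Without vehicle 48 h replicate 1 the Mat1a difference at 25 mM became 0.31 with an adjusted p of 0.022, and that at 100 mM became 0.07. With quantile normalisation Mat1a passed as lower at 24 h, at 25 mM (-0.32, adjusted p = 0.0445) and at 100 mM (-0.34, adjusted p = 0.0334, and adjusted p = 0.0484 with a fit of the compared groups alone).

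Of the 3 genes for glycine, sarcosine and dimethylglycine, Sardh (sarcosine dehydrogenase of mitochondria) was lower at 100 mM at 48 h and at both doses at 24 h. Its signals at 48 h were 5708, 5984, 5672, 6089 and 7013 in vehicle wells, 6031, 6011, 6513, 5257 and 5039 at 25 mM, and 5265, 5421, 4759, 4856 and 4978 at 100 mM. At 24 h, Sardh signals were 6981, 8425, 8015, 8231 and 7899 in vehicle wells, 5864, 5767, 6235, 6741 and 5327 at 25 mM, and 5601, 5091, 5442, 5353 and 5512 at 100 mM. At 48 h only the 100 mM arrays lay below all vehicle arrays, while at 24 h the arrays of both doses did. Sardh differed by -0.08 ± 0.07 (adjusted p = 0.512) at 25 mM and -0.27 ± 0.07 (adjusted p = 0.00904) at 100 mM at 48 h, and by -0.40 ± 0.07 (adjusted p = 0.000106) and -0.55 ± 0.07 (adjusted p = 8.7e-07) at 24 h. Its second probe set, 1370573_at, gave -0.20 ± 0.10 (adjusted p = 0.18) at 100 mM and 48 h, and with median centring that call ended on the first probe set too (-0.16, adjusted p = 0.262). Dmgdh, which forms sarcosine from dimethylglycine, and Gldc, of the glycine cleavage system, had differences of -0.09 to 0.01 and -0.14 to -0.02 and no call.

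The histidine chain split at its first step: Hal, which forms urocanate, was lower, and Uroc1 and Ftcd, which act on urocanate and on formiminoglutamate, were higher in all 4 comparisons. At 48 h, Uroc1 signals were 3290, 3185, 3894, 3488 and 3149 in vehicle wells, 8906, 6899, 7976, 6632 and 6614 at 25 mM, and 5928, 5895, 6178, 6092 and 5240 at 100 mM. At 24 h, Uroc1 signals were 3356, 3492, 3167, 4008 and 3929 in vehicle wells, 5916, 8188, 6308, 7564 and 4993 at 25 mM, and 5279, 4995, 5097, 5233 and 4873 at 100 mM. The highest vehicle array lay below the lowest DINP array at each time. Uroc1 rose by 1.11 ± 0.10 (adjusted p = 1.9e-10) at 25 mM and 0.79 ± 0.10 (adjusted p = 3.66e-07) at 100 mM at 48 h, and by 0.86 ± 0.10 (adjusted p = 6.1e-08) and 0.51 ± 0.10 (adjusted p = 0.00041) at 24 h.
At 48 h, Hal signals were 1340, 1404, 1220, 1459 and 1192 in vehicle wells, 1304, 849, 1159, 843 and 1204 at 25 mM, and 860, 801, 878, 918 and 882 at 100 mM. At 24 h, Hal signals were 1702, 1730, 1646, 1581 and 1733 in vehicle wells, 1087, 1108, 1201, 1179 and 1059 at 25 mM, and 1060, 1121, 991, 1106 and 1129 at 100 mM. The DINP arrays lay below all vehicle arrays except at 25 mM and 48 h, where 2 of the 5 arrays were within the vehicle range. Hal fell by 0.32 at 25 mM and 0.60 at 100 mM at 48 h (SE 0.10, adjusted p = 0.021 and 3.56e-05) and by 0.57 and 0.63 at 24 h (adjusted p = 7.43e-05 and 2.08e-05). The Hal call at 25 mM and 48 h ended without any 1 of DINP 25 mM 48 h replicates 2 and 4 and vehicle 48 h replicates 2 and 4 (-0.30 to -0.24), with quantile normalisation (-0.27, adjusted p = 0.0695) and with a fit of the compared groups alone (adjusted p = 0.148). Ftcd averaged 38596 ± 1795 in vehicle wells, 47240 ± 2741 at 25 mM and 47726 ± 2623 at 100 mM at 48 h (SD, n = 5 each). Its differences were 0.29 ± 0.06 (adjusted p = 0.000411) and 0.31 ± 0.06 (adjusted p = 0.000273) at 48 h and 0.30 ± 0.06 (adjusted p = 0.000415) and 0.32 ± 0.06 (adjusted p = 0.000214) at 24 h, and only at 25 mM and 24 h did its arrays overlap.

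In tyrosine breakdown Tat, the first enzyme, was lower and the enzymes after it were higher or not called. Of its 5 genes, both doses had 4 higher and 1 lower at 48 h, 25 mM had 2 higher and 1 lower at 24 h, and 100 mM had 1 in each direction at 24 h. At 48 h, Tat signals were 26535, 25399, 22314, 26536 and 24655 in vehicle wells, 12395, 12789, 15528, 13708 and 17160 at 25 mM, and 13005, 12720, 15253, 13952 and 15926 at 100 mM. At 24 h, Tat signals were 25892, 24235, 24710, 24961 and 30480 in vehicle wells, 13001, 12570, 13697, 13104 and 16719 at 25 mM, and 14809, 13186, 14304, 15152 and 17604 at 100 mM. The highest DINP array lay well below the lowest vehicle array at both times. Tat fell by 0.82 at 25 mM and 0.83 at 100 mM at 48 h (SE 0.09, adjusted p = 1.5e-08 and 1.53e-08) and by 0.92 and 0.80 at 24 h (adjusted p = 1.62e-09 and 3.77e-08).
Hgd opens the ring of homogentisate. At 48 h, Hgd signals were 3252, 2159, 2575, 2296 and 2248 in vehicle wells, 4573, 4425, 4957, 4475 and 4911 at 25 mM, and 3726, 4105, 4364, 4230 and 4448 at 100 mM. At 24 h, Hgd signals were 2950, 3504, 3279, 3100 and 3684 in vehicle wells, 3904, 3798, 4041, 3956 and 4308 at 25 mM, and 4077, 4247, 3339, 3763 and 3915 at 100 mM. At 48 h both doses stood clear of vehicle, at 24 h only 25 mM did. Hgd rose by 0.91 ± 0.09 (adjusted p = 7.26e-10) at 25 mM and 0.75 ± 0.09 (adjusted p = 5.65e-08) at 100 mM at 48 h and by 0.28 ± 0.09 (adjusted p = 0.0249) at 25 mM and 24 h. Its difference at 100 mM and 24 h was 0.23 ± 0.09 (adjusted p = 0.0807). The call at 24 h ended without any 1 of DINP 25 mM 24 h replicate 5 and vehicle 24 h replicates 1 and 4 (0.24 to 0.26).

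Fah, the last enzyme of the chain, had at 48 h signals of 33110, 32980, 31913, 34156 and 33000 in vehicle wells, 42221, 37658, 42468, 40903 and 40126 at 25 mM, and 39632, 39285, 38386, 42178 and 39182 at 100 mM. At 24 h, Fah signals were 30666, 29608, 31564, 29851 and 32333 in vehicle wells, 30253, 29558, 29883, 30720 and 28912 at 25 mM, and 31675, 31678, 30904, 29821 and 32028 at 100 mM. The groups were apart at 48 h and mixed at 24 h. Fah rose by 0.30 ± 0.04 (adjusted p = 4.52e-07) at 25 mM and 0.27 ± 0.04 (adjusted p = 4.71e-06) at 100 mM at 48 h, and differed by -0.04 ± 0.04 (adjusted p = 0.539) and 0.02 ± 0.04 (adjusted p = 0.816) at 24 h. Gstz1 (maleylacetoacetate isomerase) was higher in all 4, by 0.22, 0.26, 0.25 and 0.24 (SE 0.07, adjusted p = 0.0102 to 0.0292), in the order 25 mM and 100 mM at 48 h and then at 24 h. Hpd, which forms homogentisate, was higher at 48 h by 0.15 ± 0.05 (adjusted p = 0.0345) and 0.16 ± 0.05 (adjusted p = 0.0255), with overlapping arrays.
Gstz1 lost its calls with quantile normalisation in all 4 comparisons (0.14 to 0.17), and without any 1 of DINP 25 mM 48 h replicates 3 and 4 and vehicle 48 h replicates 2 and 3 (25 mM, 0.16 to 0.21) or vehicle 48 h replicate 3 (100 mM, 0.21) at 48 h. At 24 h its calls ended without any 1 of vehicle 24 h replicates 3 and 4 (25 mM, 0.22 to 0.23) or any 1 of vehicle 24 h replicates 2, 3 and 4 (100 mM, 0.21 to 0.23). Hpd lost its calls without any 1 of DINP 25 mM 48 h replicates 1, 3 and 4 and vehicle 48 h replicates 2 and 3 (25 mM, 0.11 to 0.15) or any 1 of DINP 100 mM 48 h replicates 2 and 4 and vehicle 48 h replicates 2 and 3 (100 mM, 0.12 to 0.15), at 25 mM with median centring (0.15, adjusted p = 0.203) and at 100 mM with quantile normalisation (0.05, adjusted p = 0.331). At both doses the Hpd calls also ended with no filter, no variance trend and the compared groups alone (adjusted p = 0.0615 to 0.082), and that of Gstz1 at 25 mM and 48 h with median centring (0.12) and no variance trend (0.0554).

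**Figure D3:**
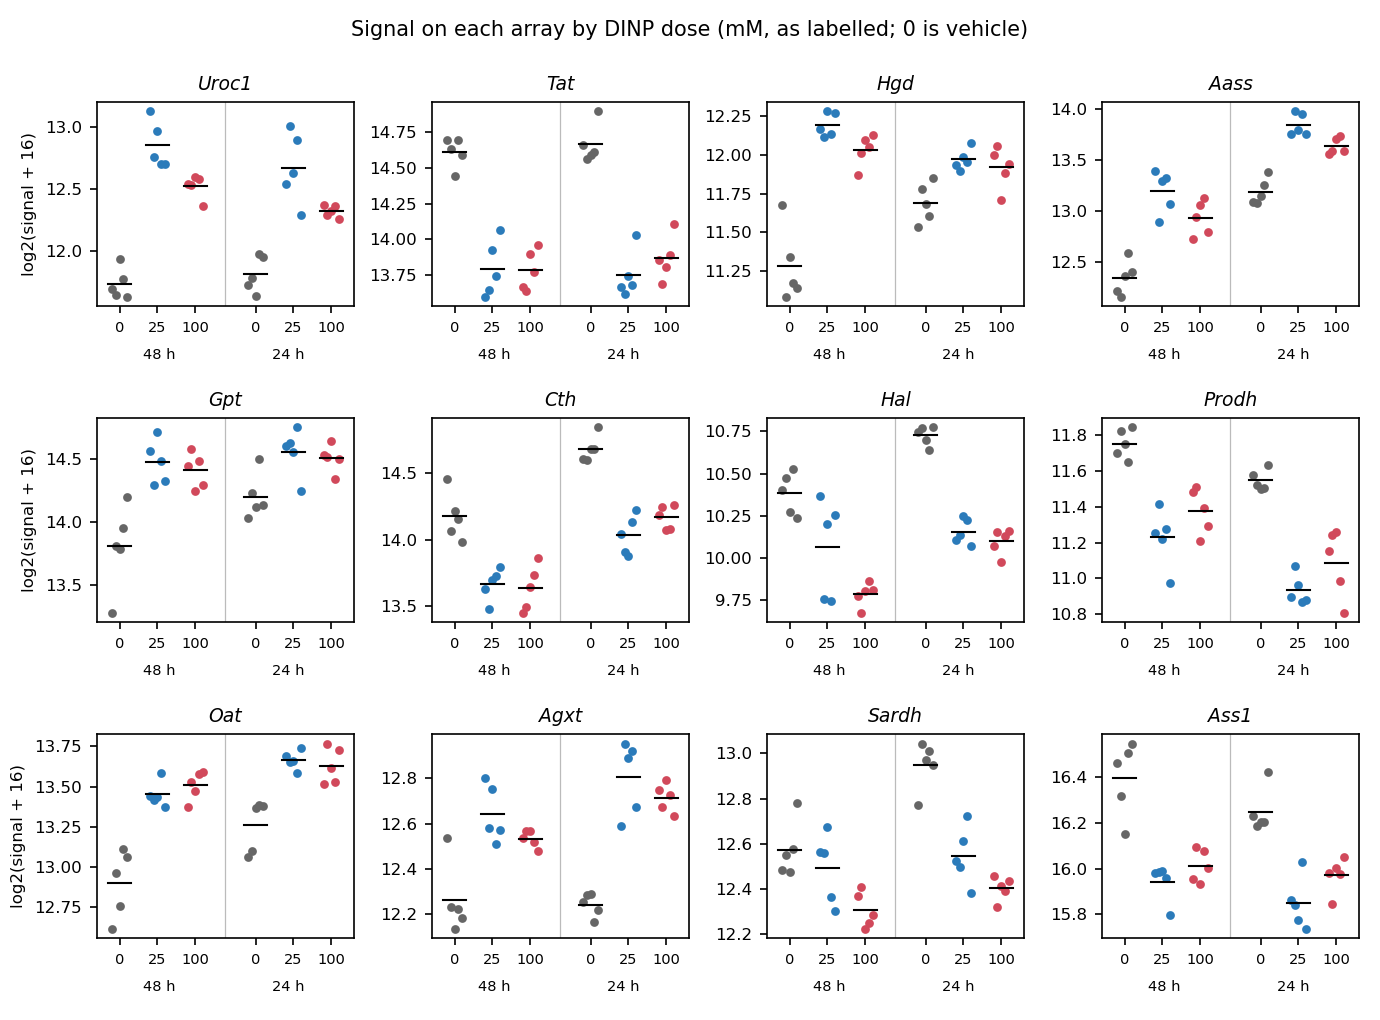
Signal on every array (vertical axis, 1 panel a gene) for the 12 genes with the largest called and non-overlapping differences, by time, 48 h left of 24 h, with vehicle in grey, 25 mM in blue and 100 mM in red. Points are arrays and black bars group means (n = 5); Tat arrays under DINP lie between 12395 and 17604, below all vehicle arrays, and Uroc1 arrays under DINP between 4873 and 8906, above all of them.

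Agxt (alanine-glyoxylate aminotransferase, which removes glyoxylate) was higher in all 4 comparisons. At 48 h, Agxt signals were 5925, 4798, 4477, 4770 and 4630 in vehicle wells, 7114, 6118, 6885, 5821 and 6066 at 25 mM, and 5926, 6045, 6060, 5848 and 5696 at 100 mM. At 24 h, Agxt signals were 4866, 4966, 4987, 4580 and 4750 in vehicle wells, 6148, 7914, 7579, 7745 and 6523 at 25 mM, and 6864, 6510, 7082, 6765 and 6328 at 100 mM. At 48 h vehicle replicate 1 reached into the DINP range, while at 24 h all DINP arrays lay above vehicle. Agxt rose by 0.38 ± 0.07 (adjusted p = 0.000176) at 25 mM and 0.27 ± 0.07 (adjusted p = 0.00779) at 100 mM at 48 h, and by 0.56 ± 0.07 (adjusted p = 4.29e-07) and 0.47 ± 0.07 (adjusted p = 1.21e-05) at 24 h. Sds (serine dehydratase) was dim, with means of 611 ± 126 in vehicle wells, 659 ± 126 at 25 mM and 412 ± 213 at 100 mM at 48 h and of 300 ± 131, 202 ± 78 and 245 ± 47 at 24 h (SD, n = 5 each). Its mean at 25 mM and 24 h lay under the dimmest tested mean, and its differences of -0.69 to 0.11 (SE 0.33) had no call.

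For lysine and proline, which have separate chains, Aass was higher and Prodh, which oxidises proline in mitochondria, was lower in all 4 comparisons. At 48 h, Aass signals were 4727, 4550, 5259, 6150 and 5397 in vehicle wells, 10740, 7571, 10023, 10220 and 8591 at 25 mM, and 6758, 7816, 8516, 8927 and 7085 at 100 mM. At 24 h, Aass signals were 8657, 8652, 9013, 9736 and 10636 in vehicle wells, 13813, 16107, 14150, 15854 and 13809 at 25 mM, and 12012, 12279, 13367, 13586 and 12314 at 100 mM. All DINP arrays exceeded all vehicle arrays of their time. Aass rose by 0.85 ± 0.09 (adjusted p = 8.36e-09) at 25 mM and 0.58 ± 0.09 (adjusted p = 1.17e-05) at 100 mM at 48 h, and by 0.66 ± 0.09 (adjusted p = 1.45e-06) and 0.45 ± 0.09 (adjusted p = 0.00059) at 24 h.
At 48 h, Prodh signals were 3317, 3607, 3431, 3203 and 3662 in vehicle wells, 2422, 2722, 2372, 2469 and 1997 at 25 mM, and 2846, 2900, 2348, 2673 and 2497 at 100 mM. At 24 h, Prodh signals were 3042, 2932, 2882, 2893 and 3159 in vehicle wells, 1892, 2136, 1980, 1852 and 1866 at 25 mM, and 2257, 2410, 2432, 2008 and 1775 at 100 mM. The ranges of DINP and vehicle wells did not overlap at either time. Prodh fell by 0.53 at 25 mM and 0.38 at 100 mM at 48 h (SE 0.08, adjusted p = 1.44e-05 and 0.00142) and by 0.61 and 0.46 at 24 h (adjusted p = 1.42e-06 and 0.000158).

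Of the 4 genes that handle glutamine, glutamate and general transamination, Gpt (alanine aminotransferase of the cytosol) was higher. At 48 h, Gpt signals were 9888, 14333, 14056, 15825 and 18810 in vehicle wells, 24256, 20075, 26935, 22843 and 20448 at 25 mM, and 22321, 24484, 19371, 22857 and 20022 at 100 mM. At 24 h, Gpt signals were 16686, 19149, 17766, 23101 and 17921 in vehicle wells, 24850, 25343, 24028, 27550 and 19414 at 25 mM, and 23674, 23431, 25634, 20703 and 23131 at 100 mM. The DINP arrays stood above vehicle at 48 h and overlapped it at 24 h. Gpt rose by 0.67 ± 0.12 (adjusted p = 4.9e-05) at 25 mM and 0.61 ± 0.12 (adjusted p = 0.000259) at 100 mM at 48 h and by 0.36 ± 0.12 (adjusted p = 0.0352) at 25 mM and 24 h. Gpt differed by 0.31 ± 0.12 (adjusted p = 0.08) at 100 mM and 24 h. The call at 24 h ended without any 1 of DINP 25 mM 24 h replicates 1, 2, 3 and 4 and vehicle 24 h replicates 1, 2, 3 and 5 (0.31 to 0.36), with quantile normalisation (0.29, adjusted p = 0.0968), and with no filter and no variance trend (adjusted p = 0.0602 and 0.0654). Gls2 (liver glutaminase), Glud1 (glutamate dehydrogenase) and Got1 (aspartate aminotransferase of the cytosol) had no call, with differences of -0.08 to 0.20, -0.04 to 0.03 and -0.05 to 0.06.

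In branched-chain amino acid breakdown 1 of 6 genes was higher in each comparison, and 1 was lower at 25 mM and 24 h. Bckdhb, the beta chain of the dehydrogenase that commits the keto acids to oxidation, rose by 0.30 ± 0.07 (adjusted p = 0.00263) at 25 mM and 0.27 ± 0.07 (adjusted p = 0.0067) at 100 mM at 48 h, and by 0.30 ± 0.07 (adjusted p = 0.00306) and 0.22 ± 0.07 (adjusted p = 0.0333) at 24 h. Its partner Bckdha, the alpha chain, had 0.20, 0.12, -0.03 and 0.13 in the same order with no call. Ivd (isovaleryl-CoA dehydrogenase of leucine breakdown) was lower at 25 mM and 24 h, the difference being -0.34 ± 0.10 (adjusted p = 0.02), with every DINP array below vehicle. Mccc1 (leucine breakdown), Aldh6a1 and Hibadh (valine breakdown) had differences of -0.06 to 0.16 and no call. The Bckdhb call at 100 mM and 24 h ended without any 1 of DINP 100 mM 24 h replicates 3 and 4 and vehicle 24 h replicates 1, 2, 3 and 4 (0.19 to 0.23), and both 100 mM calls ended with quantile normalisation (0.20, adjusted p = 0.0621 at 48 h and 0.18, adjusted p = 0.105 at 24 h). That at 24 h also ended with no filter and no variance trend (adjusted p = 0.0522 and 0.0605). Ivd lost its call without any 1 of DINP 25 mM 24 h replicate 3 and vehicle 24 h replicates 4 and 5 (-0.31 to -0.30) and with median centring (-0.26, adjusted p = 0.144).

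The doses were set against each other directly. None of the 38 genes differed between 100 mM and 25 mM after adjustment in limma at either time, where 0.00943% of all genes did, and at an unadjusted p under 0.05 there were 7 at 48 h and 2 at 24 h, beside 7.53% and 4.1% of all probe sets. The lowest adjusted p was 0.445, for Uroc1 at 48 h. Uroc1 differed by -0.33 at 48 h, with a 95% interval of -0.53 to -0.12, and by -0.35 at 24 h (-0.55 to -0.15), 100 mM being lower. Aass differed by -0.27 (-0.45 to -0.08) and -0.21 (-0.40 to -0.03) in the same order. For both genes 25 mM, and not the higher dose, was farther from vehicle in the mean. The interval for Tat was -0.19 to 0.17 at 48 h and -0.06 to 0.30 at 24 h, which leaves room for differences of that size. Over the 38 genes the differences ran from -0.80 for Sds to 0.15 for Prodh at 48 h, with 22 below zero, and 25 were below zero at 24 h. These intervals are not adjusted for the number of genes.

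The size of the effect was also compared between the times. At 25 mM, Hgd and Fah were called, 2 of the 38 genes, both with a higher difference from vehicle at 48 h than at 24 h, where 0.245% of all genes were called higher. The Hgd difference was larger at 48 h by 0.63 ± 0.12 (adjusted p = 0.00896) and the Fah difference by 0.34 ± 0.05 (adjusted p = 0.00112). Hgd in vehicle wells was lower at 48 h than at 24 h by 0.41, which is part of the 0.63. With median centring both calls ended (0.55, adjusted p = 0.139 for Hgd and 0.27, adjusted p = 0.403 for Fah). At 100 mM limma called 0 of the 38, against 0.113% of all genes in either direction, and 5 had an unadjusted p under 0.05, beside 6.26% of all probe sets. Hgd and Fah had 0.52 ± 0.12 (adjusted p = 0.0964) and 0.25 ± 0.05 (adjusted p = 0.0746) there. Without vehicle 48 h replicate 1, Hgd passed at 100 mM (0.62, adjusted p = 0.00312). Fah passed there with quantile normalisation (0.22, adjusted p = 0.0323), and both passed with array weights (0.57, adjusted p = 0.0183 for Hgd, and 0.25, adjusted p = 0.0457 for Fah). For the other genes, a call at one time and not at the other is not shown to be a difference between the times.

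**Figure D4:**
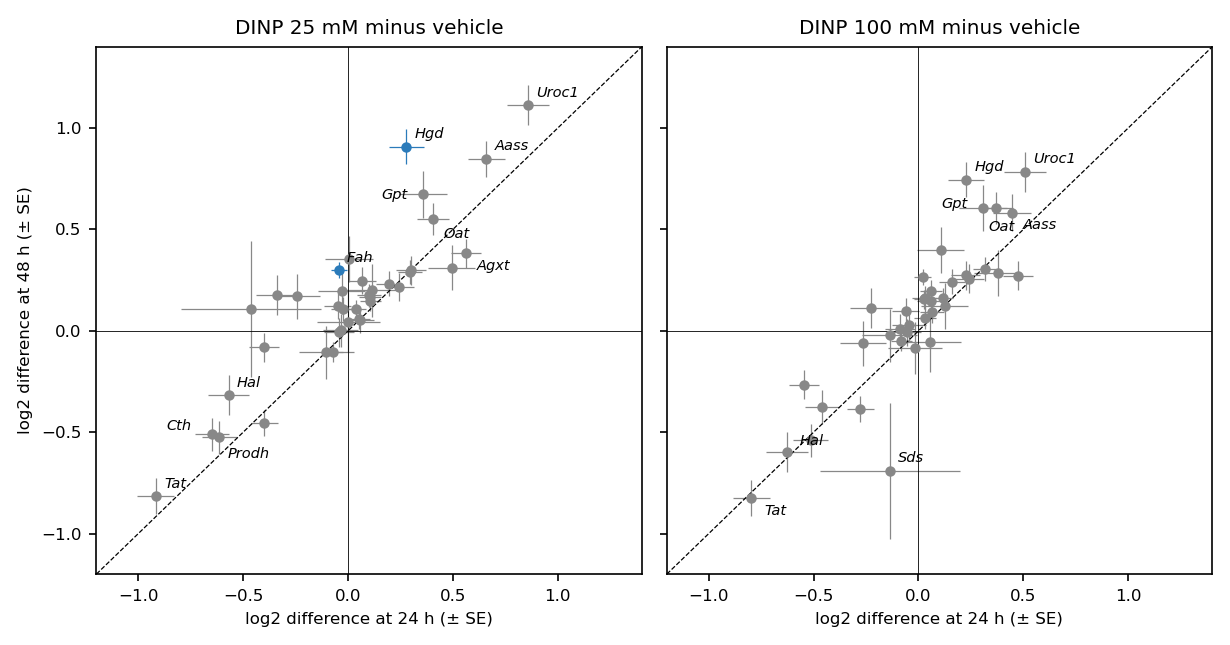
Log2 difference from vehicle at 48 h (vertical axis) against that at 24 h (horizontal axis) for the 38 genes, at 25 mM and at 100 mM. Points are genes, the dashed line marks equal differences, and the coloured points, Hgd and Fah at 25 mM, are those whose difference changed between the times; Uroc1 lies at the top right and Tat at the bottom left.

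In vehicle wells alone, several of these genes differed between the times. At 48 h against 24 h, 5 of the 38 genes were higher and 8 lower, against 9.49% and 7.92% of all genes. Aass fell by 0.84 (adjusted p = 4.15e-08), Cth by 0.51 (adjusted p = 5.06e-05), Hgd by 0.41 (adjusted p = 0.00107) and Gpt by 0.40 (adjusted p = 0.0173). Sds rose by 1.13 ± 0.33 (adjusted p = 0.0195) and Got1 by 0.43 ± 0.07 (adjusted p = 2.56e-05). Hgd averaged 2506 ± 445 at 48 h and 3304 ± 297 at 24 h in these wells (SD, n = 5 each). The Gpt call ended without any 1 of vehicle 24 h replicate 4 and vehicle 48 h replicate 1 (-0.32 to -0.26) and with a fit of the 2 vehicle groups alone (adjusted p = 0.0684), and that of Sds without any 1 of vehicle 24 h replicate 3 and vehicle 48 h replicate 4 (0.75 to 1.02). The count of higher genes was 3 without any 1 of vehicle 48 h replicate 2 and vehicle 24 h replicates 1, 3 and 4, 2 without vehicle 48 h replicate 4 and 8 without vehicle 48 h replicate 3.

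Other genes of the same pathways, from lists of 133 of which 114 were tested, gave 35 higher and 19 lower at 25 mM at 48 h (9.78% and 12.1% of all genes) and 32 higher and 14 lower at 100 mM (8.69% and 9.21%). At 24 h they gave 33 higher and 13 lower at 25 mM (7.88% and 7.84%) and 27 higher and 14 lower at 100 mM (7.55% and 7.02%). Their median difference was 0.06 at both doses at 48 h, and 0.02 at 25 mM and 0.00 at 100 mM at 24 h, beside -0.03, -0.06, -0.02 and -0.03 over all genes.
Next to the urea cycle, Slc25a15, which carries ornithine into mitochondria, was lower, with differences of -0.23 and -0.29 at 48 h and -0.70 and -0.66 at 24 h (25 mM before 100 mM, adjusted p = 1.68e-12 to 0.000967). Beside methionine metabolism, Pemt, which consumes methyl groups to make phosphatidylcholine, was higher by 1.18 ± 0.16 (adjusted p = 1.18e-06) at 25 mM and 0.99 ± 0.16 (adjusted p = 2.62e-05) at 100 mM at 48 h. Among glycine and threonine genes, Tdh (threonine dehydrogenase) was higher by 1.06 ± 0.14 (adjusted p = 7.61e-07) and 0.91 ± 0.14 (adjusted p = 1.4e-05) at 48 h in the same order. Hoga1, of hydroxyproline breakdown, was lower, with differences of -0.53 and -0.48 (adjusted p = 4.22e-09 and 3.3e-08).
In tryptophan breakdown the first enzyme, Tdo2, was lower, with differences of -0.67 ± 0.07 (adjusted p = 1.16e-08) and -0.78 ± 0.07 (adjusted p = 6.31e-10) at 48 h, and Haao, further down, was higher by 0.62 ± 0.11 (adjusted p = 4.5e-05) and 0.44 ± 0.11 (adjusted p = 0.00377). Prodh2, which oxidises hydroxyproline, was higher by 0.84 ± 0.08 (adjusted p = 2.83e-09) and 0.72 ± 0.08 (adjusted p = 9.38e-08) at 48 h, opposite in sign to Prodh. Gcdh (glutaryl-CoA dehydrogenase), downstream of Aass, was higher by 0.68 ± 0.06 (adjusted p = 4.29e-10) and 0.61 ± 0.06 (adjusted p = 5.53e-09).
Gpt2, the mitochondrial alanine aminotransferase, was lower, with differences of -0.41 ± 0.08 (adjusted p = 0.000275) and -0.46 ± 0.08 (adjusted p = 6.29e-05) at 48 h and -0.78 ± 0.08 (adjusted p = 4.92e-09) and -0.63 ± 0.08 (adjusted p = 3.82e-07) at 24 h, opposite in sign to Gpt. The Gpt2 calls at 48 h ended when the median over its probe sets was taken (-0.13 and -0.23). In branched-chain breakdown Acat1 (the thiolase that ends isoleucine breakdown) was higher by 1.07 ± 0.08 (adjusted p = 4.4e-12) and 1.03 ± 0.08 (adjusted p = 1.46e-11) at 48 h, and Ppm1k, the phosphatase that activates the dehydrogenase of Bckdha and Bckdhb, by 1.03 ± 0.11 (adjusted p = 1.39e-08) and 0.98 ± 0.11 (adjusted p = 5.12e-08). Acadsb, of the same list, was called lower at 25 mM and 48 h, with a difference of -0.95. The Acadsb call ended with no filter, median centring, the compared groups alone and array weights (adjusted p = 0.0511 to 0.0807). It also ended without any 1 of DINP 25 mM 48 h replicates 1 and 3 and vehicle 48 h replicates 2, 3 and 5 (-0.92 to -0.72). The call of Slc25a15 at 100 mM and 48 h ended with median centring (-0.18, adjusted p = 0.0565).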

How the data were processed

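RNA of 30 wells was measured on 1-colour Affymetrix rat arrays, 5 in each of 6 groups. The authors deposited a linear signal intensity for each probe set on each array, computed with MAS5 per the submitters' processing notes, which give no version, and each array's 2% trimmed mean lay between 1500.65 and 1500.76. The arrays' number limits the precision, and there are no counts behind a value. MAS5 scales each array as a whole, so an RNA class that changes in many genes would shift all others.

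From these values 57 control probe sets of 31099 were dropped, 16 was added to each signal, log2 was taken, and probe sets with a mean in the lowest 40 percent were left out (dimmest tested mean 7.955), so that 18625 remained. limma 3.58.1 in R 4.3.3 fitted the 6 groups together with a trended variance (24 residual degrees of freedom), and Benjamini-Hochberg adjustment ran over all tested probe sets within each comparison, with a threshold of 0.05. The method was run on simulated data with independent normal noise for each probe set. Such data hold no effects shared between arrays, so the run cannot show how these would act. Probe sets were named from the platform annotation (20826 with 1 symbol, 436 with several, 9780 unnamed), and 20758 symbols were updated through the Entrez ID with a table of build GRCr8, used for names. Of 16 member probe sets whose accession is in that table, 15 carried the annotated gene.

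The members, the pathway lists and the marker lists were chosen with earlier results of these data known. Values on every array are given for called, non-overlapping genes, up to the 12 with the largest differences, and for Cps1, Arg1, Tat, Mat1a and, chosen after its values were seen, Fah. From other lists up to 3 called genes a list are named, and up to 6 for time in vehicle. Groups came from the sample labels, and replicates were numbered in sample order. Alternatives were an added constant of 1 or 64, no filter or a 60 percent filter, quantile normalisation, median centring, no variance trend, array weights, fits of the compared groups alone, the median of all probe sets of a gene, a replicate block and leaving out each array.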

Additional observations from a re-analysis of the deposited data

Results flagged for a closer look

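Some groups had 1 array far from the other 4, by a gap of more than 0.71 of the group's range (Dixon's 95% value for 5 samples). This occurred in 5 of 90 groups looked at, where chance gives about 1 in 20. For Uroc1 it was DINP 100 mM 48 h replicate 5, at 12.36 on the log2(signal + 16) scale, where the others lay between 12.53 and 12.60. For Tat it was vehicle 24 h replicate 5, at 14.90 against 14.57 to 14.66, and for Agxt vehicle 48 h replicate 1, at 12.54 against 12.13 to 12.23. Ass1 had DINP 25 mM 48 h replicate 5 at 15.80 against 15.96 to 15.99, and vehicle 24 h replicate 5 at 16.42 against 16.19 to 16.23. No call of these 4 genes ended when any of these arrays was left out.

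The effects at the 2 times were compared for the 38 genes and for the 114 tested genes of the other lists. The effect of DINP at 48 h minus that at 24 h was above 0 at an adjusted p under 0.05 for 3 of them. At 25 mM it was 0.63 for Hgd, 0.34 for Fah and 0.46 for Slc25a15, the mitochondrial ornithine carrier. At 100 mM it was 0.37 for Slc25a15. Of all 10602 genes, 0.245% were called higher in this way at 25 mM and 0.0849% at 100 mM. At 25 mM, Hgd rose over vehicle at both times and by more at 48 h, Fah rose at 48 h and differed by -0.04 with no call at 24 h, and for Slc25a15 the fall below vehicle was smaller at 48 h. Part of the 0.63 for Hgd is its fall of 0.41 in vehicle wells between 24 h and 48 h. With median centring the Hgd and Fah calls ended (adjusted p = 0.139 and 0.403). The Slc25a15 calls ended with median centring (adjusted p = 0.1 at 25 mM and 0.183 at 100 mM), and that at 100 mM also with no variance trend (0.117), with the median over its probe sets (0.164) and without any 1 of DINP 100 mM 24 h replicate 5 and DINP 100 mM 48 h replicates 1 and 4 and vehicle 48 h replicate 2 (0.33 to 0.36).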

How the results depend on the processing

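Of 75 calls against vehicle, 49 held under every alternative and every left-out array, and 0 of 90 calls in all comparisons changed sign. The count of higher genes at 25 mM and 48 h was 10 in place of 17 with median centring, and at 100 mM and 48 h it was 9 in place of 15 with quantile normalisation. At 100 mM and 24 h it was 5 to 9 with 1 array left out. Between the doses, 1 probe set of all was called at 48 h; with no variance trend and with the compared groups alone it was 0, with the replicate block 2, and with 1 array left out 0 to 4. At 24 h, 2 were called, 1 with the 60 percent filter and 0 with the compared groups alone. For the effect at 48 h minus 24 h at 25 mM, median centring left 13 of 45 probe sets and 0 of 2 members. At 100 mM the 12 probe sets and 0 members became 24 and 1 with quantile normalisation, 25 and 2 with array weights, and 10 to 21 and 0 to 1 with 1 array left out. Without vehicle 48 h replicate 1 there were 21 and 1, and without vehicle 24 h replicate 2 there were 20 and 0. In vehicle wells the 5 higher members became 3 with no filter, 8 with quantile normalisation, 3 with median centring, 3 with no variance trend and 2 to 8 with 1 array left out. Uncalled differences that turned sign were Cps1 with median centring (0.000433 at 25 mM and 0.000579 at 100 mM at 24 h, 0.0526 at 100 mM and 48 h), Arg1 at 24 h with quantile normalisation (-0.0145 at 25 mM and -0.0261 at 100 mM), and Mat1a at 100 mM and 48 h with median centring (0.0423) or with 1 array left out (-0.131 to 0.0725, above 0 without vehicle 48 h replicate 1). Where no value shows it, the cause was not tested.

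With the replicate number, here the round of array numbers, as a block, 17 members were higher and 5 lower at 25 mM and 16 and 6 at 100 mM at 48 h, and 11 and 7 and then 8 and 6 at 24 h. Same-round deviations correlated by -0.0611 to 0.0994 (median 0.004 over 75 pairs), so rounds were not taken as pairs, though 12 of 30 arrays were closest to their own round, where 6 would be if rounds were alike. Tat, Cth and Mat1a, chosen after their values were seen, were highest in replicate 5 in 5 of 6 groups, and Glud1 in replicate 4 in 5 of 6. Signal over background limits Sds, whose mean at 25 mM and 24 h was under the dimmest tested mean.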

Other observations

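Of 17 amino acid transporters tested, 1 was higher and 3 lower at 25 mM at 48 h (9.78% and 12.1% of all genes), and 1 was higher and 2 lower at 100 mM (8.69% and 9.21%). At 24 h 2 were higher and 2 lower at 25 mM (7.88% and 7.84%), and 1 was higher and 3 lower at 100 mM (7.55% and 7.02%). Slc6a13, a carrier of taurine and GABA in hepatocytes, was higher by 1.74 ± 0.09 (adjusted p = 1.51e-16) at 25 mM and 1.60 ± 0.09 (adjusted p = 1.22e-15) at 100 mM at 48 h, and by 1.41 ± 0.09 (adjusted p = 2.67e-14) and 1.41 ± 0.09 (adjusted p = 3.18e-14) at 24 h. Slc38a4, a sodium-coupled importer of neutral amino acids in liver, was lower, with differences of -0.34 and -0.30 at 48 h (adjusted p = 1.92e-06 and 2.94e-05), and the call at 100 mM ended with median centring (-0.19, adjusted p = 0.0832). Slc16a10, which exports aromatic amino acids, was lower, with differences of -0.53 ± 0.13 (adjusted p = 0.00382) and -0.64 ± 0.13 (adjusted p = 0.000602) at 24 h.

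Of 17 tested regulators, 5 were higher and 3 lower at 25 mM and 4 were higher and 3 lower at 100 mM at 48 h, and 3 were higher and 2 lower at each dose at 24 h, beside the same shares of all genes as for the transporters. Ppargc1a, a coactivator that fasting is known to induce in liver, was lower, with differences of -0.72 ± 0.13 (adjusted p = 7.08e-05) and -0.69 ± 0.13 (adjusted p = 0.000147) at 48 h and -0.75 ± 0.13 (adjusted p = 5.1e-05) and -0.54 ± 0.13 (adjusted p = 0.00331) at 24 h. Nr1h4, the bile acid receptor FXR, was higher by 0.71 ± 0.09 (adjusted p = 4.52e-07) and 0.57 ± 0.09 (adjusted p = 2.26e-05) at 48 h. Sirt3, a mitochondrial deacetylase, was higher by 0.86 ± 0.11 (adjusted p = 3.15e-07) and 0.83 ± 0.11 (adjusted p = 8.26e-07) at 48 h.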
